A study of Rattus norvegicus with 6 samples.

Results

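The genes described here are those of RT1, the major histocompatibility complex (MHC) of the rat, and the genes that prepare and load peptides for its products. They were chosen by name: every row of the gene tables whose symbol starts with RT1-, and the 14 genes B2m, Tap1, Tap2, Tapbp, Tapbpl, Psmb8, Psmb9, Psmb10, Psme1, Psme2, Erap1, Nlrc5, Ciita and Cd74. This gave 55 of the 28358 genes, of which 41 were RT1 rows. Rows starting with RT1-B, RT1-D or RT1-H were taken as class II (10 rows) and all other RT1 rows as class I (31 rows, pseudogenes included). RNA came from neuroretinas of 14-month-old male Goto-Kakizaki (GK) rats, a lean strain with inherited type 2 diabetes. All 6 samples came from eyes that had received 5 µL of PLGA (a degradable polymer) microspheres in the vitreous 2 months earlier. In 3 of them the microspheres were loaded with 6.2 µg of spironolactone, which blocks mineralocorticoid receptors, and in the other 3 they were non-loaded. Libraries are named NL1 to NL3 (non-loaded) and SP1 to SP3 (spironolactone), and values listed for 3 libraries follow that order. Both groups are therefore diabetic and injected, and an uninjected or non-diabetic group was not analysed here. The labels do not state that each sample is a different animal, and the spread between samples of a group may thus be partly technical.

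MHC class I molecules are made of a polymorphic heavy chain, encoded by the RT1 class I genes, and the light chain beta-2-microglobulin. They show peptides from the cell's own proteins to CD8 T cells and natural killer cells. Proteasomes cut these proteins, the TAP transporter carries the peptides into the endoplasmic reticulum, aminopeptidases trim them and tapasin helps to place them in the groove. Class II molecules are pairs of an alpha and a beta chain that assemble on the invariant chain, CD74, and show peptides from endocytosed proteins to CD4 T cells. In the healthy retina class II is known mainly from a small number of microglia, perivascular macrophages and dendritic cells. Nlrc5 and Ciita encode the transactivators that turn on class I and class II genes, and both gene groups are known to respond to interferon gamma.

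Sequences of 4 promoter windows are given to show the close likeness of a pair of class I genes that the results turn on (RT1-A1 and RT1-A2), and the control regions of the class II gene that rose (RT1-Ba) and of the loading gene that fell (Tapbp). They come from RefSeq on the GRCr8 assembly and were matched by symbol. That assembly is later than the rn6 build the submitters name, so the pairing of a symbol with a copy may differ. Each window runs 5′ to 3′ from 250 bases before to 50 bases after the annotated start: RT1-A1 at chr20:4906959-4907258 (plus strand), RT1-A2 at chr20:4872621-4872920 (plus strand), RT1-Ba at chr20:4576807-4577106 (plus strand) and Tapbp at chr20:4967828-4968127 (minus strand). Capitals mark matches on either strand to 3 motifs: CCAAT, the box bound by NF-Y; GAAANNGAAA, the core of interferon response elements; and GGGNNNNCCC, a form of the kappaB site. Matches to GGGNNNNCCC that overlap by all but 1 base are merged in the capitals, as are the overlapping GAAANNGAAA matches of Tapbp.
RT1-A1: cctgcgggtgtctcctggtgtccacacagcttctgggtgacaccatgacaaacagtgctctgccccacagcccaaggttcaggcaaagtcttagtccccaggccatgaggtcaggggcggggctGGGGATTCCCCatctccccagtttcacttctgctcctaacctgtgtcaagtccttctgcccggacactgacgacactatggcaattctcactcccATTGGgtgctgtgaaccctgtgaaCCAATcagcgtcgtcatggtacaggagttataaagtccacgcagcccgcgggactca
RT1-A2: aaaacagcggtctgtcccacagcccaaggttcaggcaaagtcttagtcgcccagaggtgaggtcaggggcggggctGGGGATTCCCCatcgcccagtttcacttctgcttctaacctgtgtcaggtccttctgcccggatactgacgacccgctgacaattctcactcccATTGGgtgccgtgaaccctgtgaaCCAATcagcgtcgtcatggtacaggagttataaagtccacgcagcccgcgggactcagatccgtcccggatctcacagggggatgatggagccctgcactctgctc
RT1-Ba: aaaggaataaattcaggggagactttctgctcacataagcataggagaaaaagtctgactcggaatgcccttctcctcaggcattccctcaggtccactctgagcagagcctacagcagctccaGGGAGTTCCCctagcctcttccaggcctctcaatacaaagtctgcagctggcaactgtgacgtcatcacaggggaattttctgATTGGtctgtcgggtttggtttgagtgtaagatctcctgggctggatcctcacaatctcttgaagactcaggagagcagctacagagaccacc
Tapbp: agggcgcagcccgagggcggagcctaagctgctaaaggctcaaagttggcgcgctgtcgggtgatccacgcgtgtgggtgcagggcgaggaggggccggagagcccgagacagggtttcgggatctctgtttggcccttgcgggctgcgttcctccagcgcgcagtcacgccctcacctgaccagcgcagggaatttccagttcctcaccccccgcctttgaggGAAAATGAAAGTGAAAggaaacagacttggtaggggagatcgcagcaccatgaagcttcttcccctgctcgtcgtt

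The windows of RT1-A1 and RT1-A2 aligned over 251 columns with 92.4% identical, and RT1-CE16, another class I gene, aligned with RT1-A2 over 253 columns with 87% identical. Both RT1-A windows hold an overlapping pair of GGGNNNNCCC matches followed by a pair of CCAAT boxes. The first CCAAT box lies 31 bases before the annotated start in RT1-A1 and 80 in RT1-A2. Of the 55 genes, 41 had a window in the table. CCAAT was found in 9 of 9 class II windows, 15 of 21 class I windows and 5 of 11 of the other genes, against 37.5% of all 33469 promoters. GAAANNGAAA was found in 0 of 9, 3 of 21 and 7 of 11, against 3.92%. Those 7 were B2m, Tap1, Tap2, Tapbp, Psmb8, Psmb10 and Psme2. GGGNNNNCCC was found in 2 of 9, 6 of 21 and 2 of 11, against 11.6%. These are matches of letters to strict patterns and do not show binding. A window without a match may still hold a looser form of a site, so its absence is not shown.

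The libraries held 9996198 to 12589466 expected counts, and counts of different libraries differed by more than counting noise in all 15 pairs (chi-square of at least 4 per gene), so none was a copy of another. By this measure the control NL3 was nearer to SP1 (4.72) than to NL1 (5.61) or NL2 (5.04), and farther from SP2 (6.67) and SP3 (11.4). Markers of rods, the main cells of a neuroretina, had the highest summed level of the marker lists checked, at 51624 ± 6293 CPM (counts scaled to the library's total with TMM factors) without and 38603 ± 2251 CPM with the drug (SD, n = 3). Of the 55 genes, 13 were listed at 0 in all 6 libraries, 11 had too few counts to pass the filter, and 31 were tested with edgeR's quasi-likelihood test. Those at 0 were Tap2, the class II genes RT1-DMa, RT1-DMb, RT1-Db2 and RT1-Ha, and 8 class I rows (RT1-M1-1-ps, RT1-M10-2-ps, RT1-M10-3-ps, RT1-M10-4-ps, RT1-M2, RT1-M6-1, RT1-M6-2 and RT1-P2-ps1). A count of 0 allows up to 3 counts, or 0.239 to 0.304 CPM depending on the library, for counting error only. Tap1, the partner of Tap2 in the same transporter, was counted 83 to 145 times per library, so Tap2 is given only as listed at 0. Lnpep and Rfxap, on the pathway lists below, were also listed at 0 in all 6 libraries. Whether reads of a gene listed at 0 were assigned elsewhere was not tested, so a 0 does not show that its RNA was absent.

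Of the 31 tested genes, 4 rose (RT1-A2, RT1-CE16, RT1-Ba and Cd74) and 3 fell (RT1-CE4, RT1-T24-3 and Tapbp) at an adjusted p of 0.05. That is 22.6%, against 2.63% of all 13242 tested genes (1.87% higher and 0.763% lower). The genes were chosen with earlier results of these data known, so the difference between these shares is not a test of the set. The median log2 fold change was 0.24 over the 14 tested class I genes and −0.13 over the 13 genes outside RT1, against 0.00 over all tested genes. The CPM of the groups did not overlap for 15 of the 31 (9 higher, 6 lower), against 20.9% of all tested genes. Of the 31, 4 passed the filter on low counts through 1 group: RT1-Ba, RT1-Bb and RT1-Db1 reached its level in all 3 libraries only with the drug, and RT1-T24-3 only without it. Passing the filter thus favoured a difference in that direction for these genes. The counts and medians therefore describe the tested genes and support no statement on all 55, and no median is given for the 4 class II genes. RT1-A2, RT1-Ba and Tapbp passed without any one library and under each other setting that gave them an adjusted p, except with the number in the sample titles (2, 3 and 4 without and 8, 10 and 11 with the drug) as a covariate. That fit gave log2 fold changes of 1.01 for RT1-A2, 1.01 for RT1-Ba and −0.30 for Tapbp. It called 0 of the 13242 genes (562 at an unadjusted p below 0.05, 3 of them among the 31; edgeR was the only tool run with it), and number and treatment cannot be told apart in this design.

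**Figure D1:**
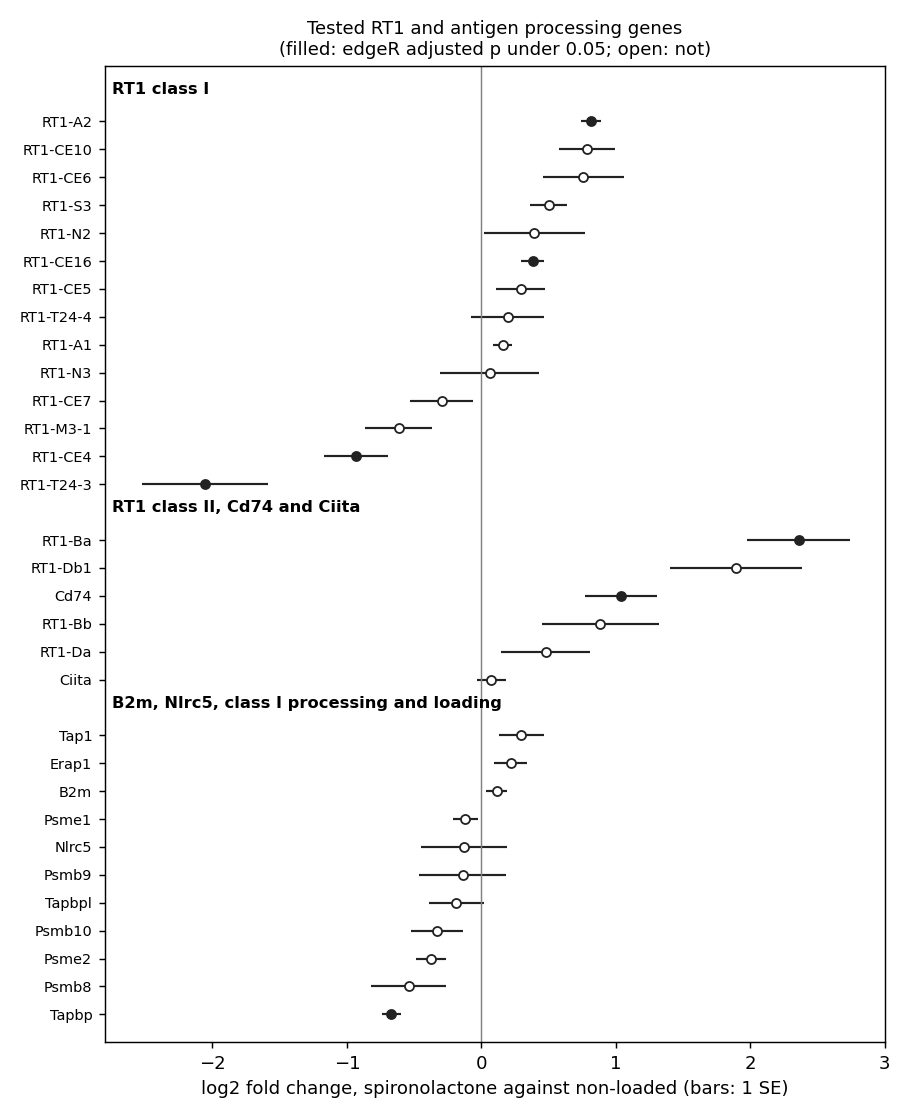
Log2 fold change (x axis) of each of the 31 tested genes (rows, by group), with 1 SE as the bar and filled points for the 7 genes with an adjusted p below 0.05. RT1-Ba lies farthest right at 2.36 and RT1-T24-3 farthest left at −2.06.

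The RT1-A genes encode the classical class I heavy chains. RT1-A2 measured 64.4, 69.8 and 71.2 CPM in the non-loaded libraries and 126.9, 128.1 and 107.1 CPM in the spironolactone libraries. Every treated library was thus above every control library, by a log2 fold change of 0.82 ± 0.07 (SE; 1.76-fold, edgeR adjusted p = 7.82e-06). RT1-A1, the class I gene with the highest level per length, measured 185.5, 193.7 and 223.7 CPM without and 231.4, 231.2 and 210.8 CPM with the drug. Here the groups overlapped, since NL3 was above SP3, and the change of 0.16 ± 0.07 did not pass (adjusted p = 0.28).

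RT1-A1 and RT1-A2 divide reads between them. The expected counts of both were fractional in all 6 libraries, as happens when the counting program splits reads that match several genes, while the sum of the pair was whole to within 0.02 in 6 of 6 libraries (2471, 3021, 3586 and 3840, 4504, 3520). The estimated share of RT1-A2 in the pair was 25.8%, 26.5% and 24.1% without and 35.4%, 35.7% and 33.7% with the drug. The libraries of a group lay close together and the groups stood apart. The summed pair measured 250, 263.5 and 294.9 CPM without and 358.3, 359.4 and 317.9 CPM with the drug, also without overlap. Its log2 fold change when fitted as 1 row was 0.36 ± 0.07, less than that of RT1-A2 alone. This summed row was chosen after seeing the data and is given without a p-value. The level of the pair does not depend on how reads were divided within it, whereas the value of RT1-A2 does. The rn6 reference is of the BN strain, and rat strains differ in the number and sequence of their class I genes. How GK reads fell on the BN copies was not tested.

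**Figure D2:**
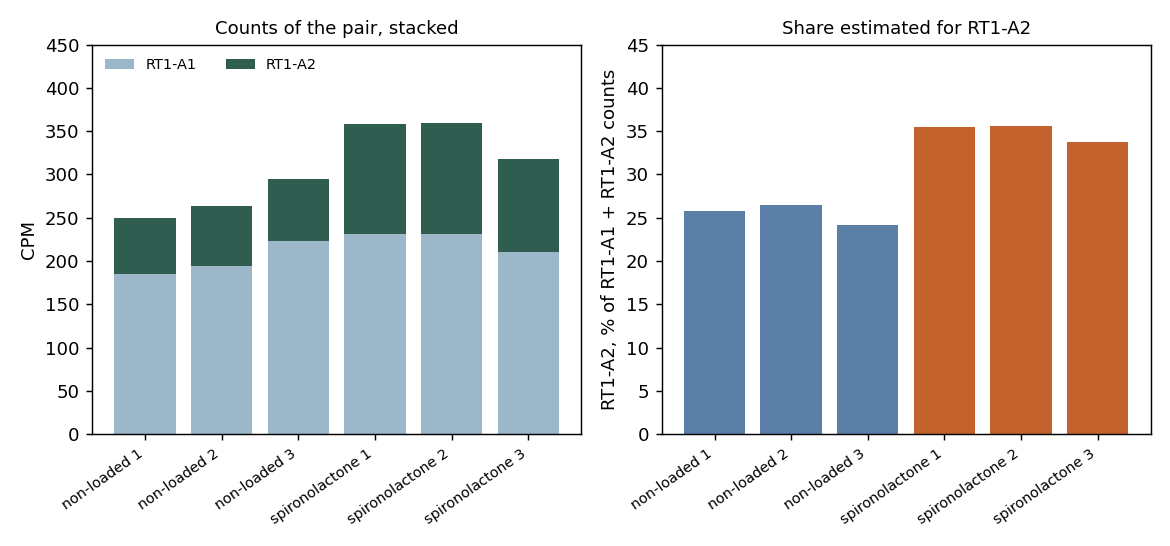
Left, CPM of RT1-A1 and RT1-A2 stacked for each of the 6 libraries. Right, the percent of the pair's expected counts assigned to RT1-A2, which lies between 24.1% and 26.5% in the non-loaded and between 33.7% and 35.7% in the spironolactone libraries.

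RT1-CE genes belong to a second class I cluster. RT1-CE16 measured 43.4, 42.5 and 49.3 CPM without and 61.9, 60.8 and 53.6 CPM with the drug. All treated libraries were higher, with a log2 fold change of 0.38 ± 0.08 (adjusted p = 0.0212). The call was lost without NL1 (adjusted p = 0.104), NL2 (0.11) or SP2 (0.144), and on log2(TPM + 1) (0.0989) or log2(TPM + 0.1) (0.0996). No fractional count was assigned to RT1-CE16. RT1-CE10 measured 7.69, 4.62 and 6.33 CPM without and 8.87, 13.7 and 9.21 CPM with the drug, a difference of 0.78 ± 0.21 that missed the threshold (adjusted p = 0.0604), although the groups did not overlap. It passed without SP1 (0.0254), with robust shrinkage (0.0345) and with no filter (0.00416). It missed with any other library left out (0.069 without NL1 to 0.315 without SP2).

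RT1-CE4 was lower with the drug, at 5.36, 9.86 and 8.96 CPM against 4.39, 5.03 and 3.25 CPM. The groups did not overlap (log2 fold change −0.94 ± 0.24, adjusted p = 0.0471), but NL1 came close to the treated libraries. The call was lost without NL2 (0.199), NL3 (0.135), SP2 (0.107) or SP3 (0.204), with limma-voom (0.0679) on log2(TPM + 1) (0.131) and on log2(TPM + 0.1) (0.136). RT1-CE4 also had fractional counts in all 6 libraries, as had RT1-CE5, and RT1-CE6 and RT1-CE7 had them in 4. The sum of RT1-CE3 to RT1-CE7 measured 24.1, 23.6 and 27.7 CPM without and 23, 26.2 and 22.5 CPM with the drug, with overlap. In the sum of these copies the groups were thus mixed, unlike in RT1-CE4. That sum was whole in only 2 of 6 libraries, so it does not remove sharing of reads with genes outside these 5 rows. RT1-CE5 measured 9.51, 6.8 and 7.65 CPM and, with the drug, 7.84, 11.4 and 9.84 CPM (0.29 ± 0.18, adjusted p = 0.467). RT1-CE6 (0.76 ± 0.30, adjusted p = 0.222) and RT1-CE7 (−0.29 ± 0.23, adjusted p = 0.593) lay on either side of 0.

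Among the class I genes outside RT1-A and RT1-CE, RT1-S3 had the highest level. It measured 15.5, 18.9 and 23.1 CPM without and 31.5, 23.8 and 26.6 CPM with the drug. The groups did not overlap and the log2 fold change was 0.50 ± 0.14, which missed the threshold (adjusted p = 0.0643). It passed with DESeq2 (0.0267), robust shrinkage (0.0469), no filter (0.00389) and without NL3 (0.0204). It missed with any other library left out (0.103 without SP2 to 0.269 without NL1). RT1-T24-3 was counted 16, 15 and 23 times without and 2, 5 and 6 times with the drug. That is 1.62, 1.31 and 1.89 CPM against 0.187, 0.399 and 0.542 CPM, a log2 fold change of −2.06 ± 0.47 (adjusted p = 0.0262) that was lost when any 1 library was left out (0.0597 without NL2 to 0.138 without SP2) and on log2(TPM + 0.1) (0.0718). RT1-T24-4 of the same family measured 3.31 ± 1.16 and 3.84 ± 0.43 CPM (0.19 ± 0.27, adjusted p = 0.789). RT1-M3-1, whose product binds formylated peptides, measured 6.68, 5.58 and 5.43 CPM without and 5.41, 3.51 and 2.62 CPM with the drug (−0.62 ± 0.25, adjusted p = 0.233). Its groups were close, NL3 lying next to SP1, and it passed only without SP1. RT1-N2 (0.39 ± 0.38) and RT1-N3 (0.06 ± 0.37), with group means of 1.01 to 1.84 CPM, did not pass either (adjusted p of 0.673 and 0.961).

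**Figure D3:**
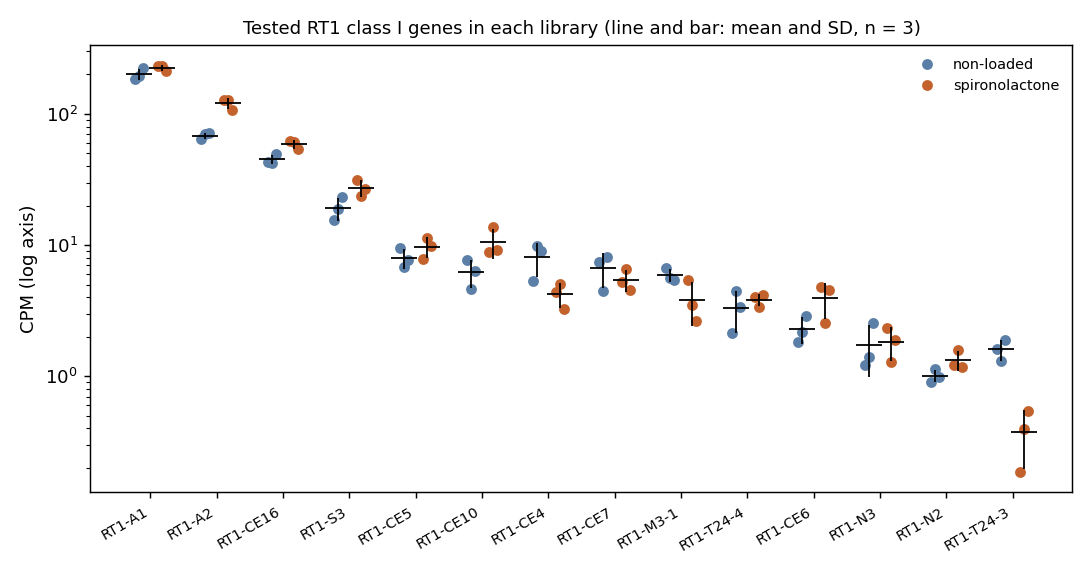
CPM (log axis) of the 14 tested class I genes in each library, ordered by level, with non-loaded libraries in blue, spironolactone libraries in orange, and the mean and SD of 3 as line and bar. RT1-A2 shows a wide gap between groups (64.4 to 71.2 against 107.1 to 128.1 CPM), RT1-A1 overlap, and RT1-T24-3 lies lower with the drug.

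A further 9 class I rows were counted but not tested. RT1-CE1 is the most uneven of them, with 9 and 10 counts in NL2 and NL3 and 0 in NL1 and in all 3 spironolactone libraries. Thus its level does not separate the groups. RT1-CE3 was counted 0, 3 and 1 times without and 8, 8 and 4.47 times with the drug. RT1-M4 (at most 7 counts) and RT1-M5 (at most 9 counts) were counted in all non-loaded libraries and were at 0 in SP3. The rest, RT1-T24-1, RT1-T24-2, RT1-S2, RT1-M3-2-ps and RT1-CE9-ps1, had at most 5 counts. In a fit with no filter RT1-CE1 had an adjusted p of 0.0264 and the other 8 had 0.255 or more.

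Summed over the 31 class I rows, which removes the division of reads among these rows but not any sharing with other genes (the sum was whole in 2 of 6 libraries), the level was 355.4, 368.5 and 417.4 CPM without and 498, 494.3 and 440.4 CPM with the drug. The lowest treated library was above the highest control, and the ratio of the means was 1.26. Without RT1-A2 the sums were 290.9, 298.8 and 346.3 against 371.1, 366.1 and 333.3 CPM, and the groups overlapped. This sum still depends on how reads were divided between RT1-A1 and RT1-A2. Without both genes, a sum not planned beforehand, the values were 105.4, 105 and 122.55 against 139.7, 134.9 and 122.47 CPM. The ratio of these means was 1.19, and the groups overlapped only in that NL3 was just above SP3. RT1-A1 held 52.8 ± 0.72% of class I counts without and 47 ± 0.74% with the drug, RT1-A2 18 ± 0.94% and 25.2 ± 0.83%, RT1-CE16 11.8 ± 0.35% and 12.3 ± 0.12%. The share of RT1-A1 was lower and that of RT1-A2 higher in every treated library, while that of RT1-CE16 overlapped.

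Class II RNA was scarce, and 1 of the 4 tested class II genes passed the test. That gene, RT1-Ba, the alpha chain of the RT1-B molecule, was counted 6, 5 and 11 times without and 26, 56 and 36 times with the drug. This equals 0.607, 0.436 and 0.905 CPM against 2.43, 4.47 and 3.25 CPM, with no overlap and a log2 fold change of 2.36 ± 0.38 (5.13-fold, adjusted p = 0.00229). With any 1 library left out the adjusted p lay between 0.00121 and 0.0386. Its partner RT1-Bb, the beta chain, measured 0.607, 1.74 and 0.658 CPM without and 1.96, 1.28 and 2.44 CPM with the drug. NL2 was above SP2, and the change of 0.88 ± 0.44 did not pass (adjusted p = 0.338).

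The RT1-D molecule is encoded by RT1-Da (alpha) and RT1-Db1 (beta). RT1-Db1 was counted 5, 5 and 2 times without and 12, 18 and 17 times with the drug, or 0.506, 0.436 and 0.164 CPM against 1.12, 1.44 and 1.54 CPM. The groups did not overlap, and the log2 fold change of 1.89 ± 0.49 just missed the threshold (adjusted p = 0.0504). It passed with limma-voom (0.0436), robust shrinkage (0.0432) and on log2(TPM + 1) (0.0455). It missed in the other settings that gave it an adjusted p. Among these were any 1 library left out (0.052 to 0.204), log2(TPM + 0.1) (0.0663) and no filter (0.0711). RT1-Da measured 1.01, 1.92 and 1.65 CPM without and 2.05, 2.39 and 1.99 CPM with the drug. All treated libraries were slightly higher, but the change of 0.48 ± 0.33 was small against its error (adjusted p = 0.528). Below the filter, RT1-DOb had 2, 1 and 2 counts without and 6, 3 and 4 with the drug, and RT1-DOa had 4 counts in NL3 only. The sum over the 10 class II rows was 2.93, 4.62 and 3.86 CPM without and 8.12, 9.81 and 9.57 CPM with the drug, a ratio of means of 2.41. Without RT1-Ba it was 2.33, 4.19 and 2.96 against 5.69, 5.35 and 6.32 CPM, a ratio of 1.83, and the groups still did not overlap.

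Cd74, the invariant chain, measured 4.35, 3.31 and 9.62 CPM without and 10.5, 14 and 11.4 CPM with the drug. NL3 stood well above the other controls and just below the treated libraries. The log2 fold change was 1.04 ± 0.27 (adjusted p = 0.0499). It was lost without NL1 (0.225), NL2 (0.172), SP2 (0.255) or SP3 (0.124), while without NL3 it was 1.65 (0.000285). It also missed with robust shrinkage (0.232), on log2(TPM + 1) (0.147) and log2(TPM + 0.1) (0.152), and with upper quartile (0.0567) or total scaling (0.0525). Ciita, the class II transactivator, measured 24.1, 25.8 and 21.7 CPM without and 22, 25.8 and 27.5 CPM with the drug (0.07 ± 0.11, adjusted p = 0.8). Per length, Ciita (9.17 TPM, a level per transcript length) was above RT1-Ba (3.95), RT1-Da (3.23), RT1-Bb (1.68) and RT1-Db1 (1.58), as means of 6 libraries.

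A changed number of cells of a type and changed RNA per cell cannot be told apart in whole tissue. Markers of cells that carry class II were therefore read in the same libraries. Over all 13242 tested genes, edgeR gave 2098 an unadjusted p below 0.05 and called 1.87% higher and 0.763% lower. Of 14 microglia markers found, all 14 were tested and 0 were called by edgeR (0 also at an unadjusted p below 0.05, other tools not run on the list), with a median log2 fold change of 0.00. Their summed level was 159 to 204.6 CPM without and 176.1 to 180.2 CPM with the drug, the highest being NL3, where Cd74 was also high. Csf1r measured 39.3 ± 5.32 and 38.3 ± 3.47 CPM and C1qa 24.6 ± 5.72 and 23.6 ± 1.54 CPM. Of 12 macrophage and dendritic cell markers, 7 were tested and 0 called (3 at an unadjusted p below 0.05), and the sum was 19.9 to 32.2 CPM without and 25.3 to 30.2 CPM with the drug. The dendritic marker Clec9a and the monocyte marker Ccr2 were listed at 0 in all libraries. Of that list Flt3 measured 3.96 ± 0.68 and 2.41 ± 0.37 CPM (adjusted p = 0.189), Lyz2 11.6 ± 2.95 and 14.9 ± 1.72 CPM (adjusted p = 0.307) and Cd68 1.37 ± 0.86 and 2.73 ± 0.87 CPM (adjusted p = 0.276). These are the 3 with an unadjusted p below 0.05. F13a1 measured 2.87 ± 1.96 and 2.13 ± 0.48 CPM (adjusted p = 0.698), and the median log2 fold change of the 7 tested was −0.04. Of 11 B and T lymphocyte markers found only Cd4 was tested, and the sum was 7.85 to 14.6 CPM without and 9.48 to 9.73 CPM with the drug. Cd4 held 9.47 ± 3.64 and 8.62 ± 0.11 CPM of that sum, which thus mainly follows 1 gene and is not read as a level of lymphocytes. Cd79a, Ms4a1, Cd3d and Cd8b were listed at 0. Endothelial markers, from cells that carry class I, held 1 call among 9 (Vwf, 0.55 ± 0.14, adjusted p = 0.0404) and a sum of 937.7 to 1008.1 CPM without and 885.5 to 1008.1 CPM with the drug. Kdr alone held 784.3 ± 34.4 and 750 ± 85 CPM of that sum, which thus mainly follows 1 gene. The 8 Müller glia markers held 0 calls, with sums of 8032 to 8181 and 7961 to 8167 CPM. Of 10 rod markers 5 fell, with sums of 44378 to 55717 CPM without and 36600 to 41039 CPM with the drug. The part of these cells in the RT1 changes was not tested.

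**Figure D4:**
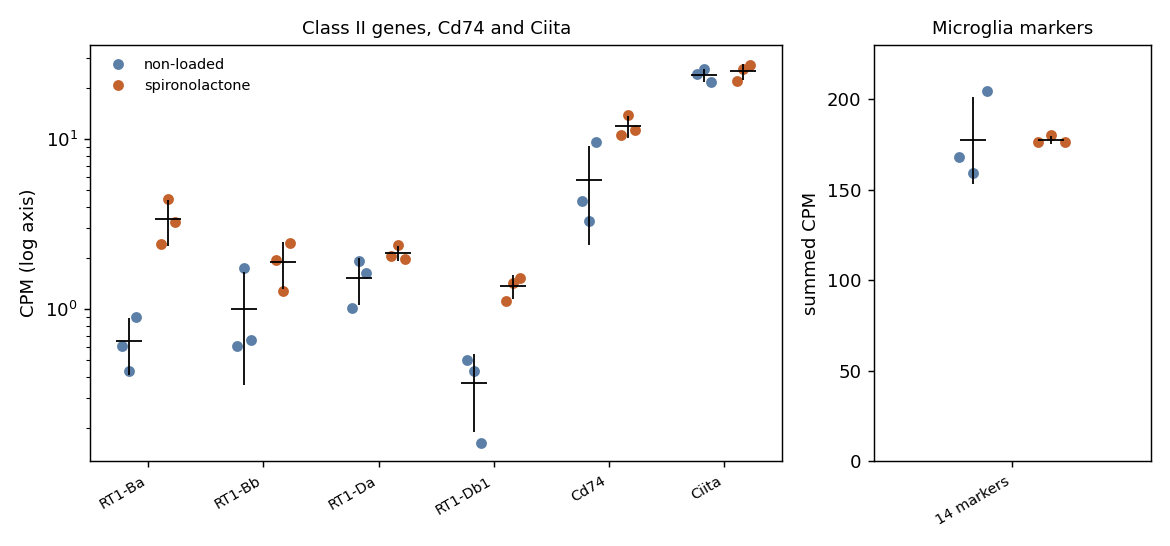
Left, CPM (log axis) of the 4 tested class II genes, Cd74 and Ciita in each library, with the mean and SD of 3. Right, the summed CPM of 14 microglia markers, which lies between 159 and 204.6 in the non-loaded and between 176.1 and 180.2 in the spironolactone libraries. On the left, the groups do not overlap for RT1-Ba, RT1-Da, RT1-Db1 and Cd74, and overlap for RT1-Bb and Ciita.

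Among the light chain, processing and loading genes only Tapbp passed the test. B2m, second in level per length (181 TPM, against 266 for RT1-A1), measured 144.6, 155.3 and 177.5 CPM without and 154.6, 175.2 and 187.2 CPM with the drug. The groups overlapped (0.11 ± 0.08, adjusted p = 0.526). Tap1, a subunit of the peptide transporter, measured 9.81, 7.24 and 8.06 CPM without and 8.96, 11.6 and 10.1 CPM with the drug (0.30 ± 0.17, adjusted p = 0.414), with SP1 inside the control range.

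Tapbp, which encodes tapasin, measured 89.4, 81.7 and 83.7 CPM without and 56.1, 55.3 and 48.7 CPM with the drug. The highest treated library was far below the lowest control, and Tapbp fell by 0.67 ± 0.07 on the log2 scale (adjusted p = 4.4e-05). Tapbpl, its relative that edits peptides on class I, measured 8.5, 8.37 and 13.1 CPM without and 8.21, 11.2 and 6.95 CPM with the drug. The libraries of both groups were mixed (−0.19 ± 0.20, adjusted p = 0.72). Erap1, the aminopeptidase that trims peptides, measured 26.8, 20 and 27.1 CPM without and 32.1, 28.4 and 25.3 CPM with the drug (0.22 ± 0.12, adjusted p = 0.413).

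The 3 immunoproteasome subunit genes, whose products replace the standard catalytic subunits, were expressed at a low level. Psmb8 measured 2.53, 2.97 and 3.37 CPM without and 1.96, 2.15 and 1.99 CPM with the drug. Its groups did not overlap, but the change of −0.54 ± 0.28 did not pass (adjusted p = 0.369). Psmb9 measured 2.12, 2.18 and 4.36 CPM without and 3.08, 2.87 and 1.99 CPM with the drug (−0.14 ± 0.33, adjusted p = 0.894), NL3 being the highest. Psmb10 measured 7.28, 6.54 and 8.88 CPM without and 7.09, 5.98 and 5.06 CPM with the drug (−0.33 ± 0.19, adjusted p = 0.44). The replaced subunits were far more abundant per length, with Psmb5 at 151 and Psmb6 at 156 TPM against 4.75 for Psmb8, 6.74 for Psmb9 and 14.8 for Psmb10.

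Psme1 and Psme2 encode the subunits of PA28, a proteasome activator. Psme2 measured 20.7, 19.2 and 20.4 CPM without and 16.9, 14.7 and 14.9 CPM with the drug. Every treated library was lower, yet the change of −0.38 ± 0.11 missed the threshold (adjusted p = 0.0935). Psme1 measured 30.5, 27 and 28.8 CPM without and 27.1, 25.6 and 26.6 CPM with the drug (−0.12 ± 0.09, adjusted p = 0.576). Nlrc5, the class I transactivator, was counted 14 to 30 times per library and measured 1.42, 2.18 and 2.47 CPM without and 1.96, 1.68 and 1.99 CPM with the drug (−0.13 ± 0.32, adjusted p = 0.905). At this depth its SE was wide relative to its change.

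**Figure D5:**
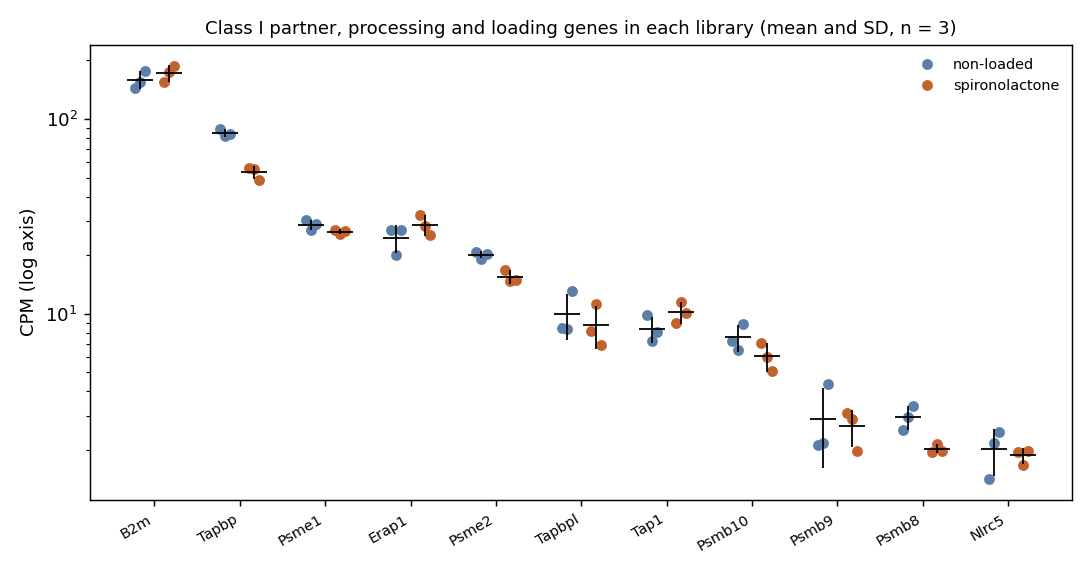
CPM (log axis) of B2m, the class I processing and loading genes and Nlrc5 in each library, with the mean and SD of 3. Tapbp is the gene with a clear gap, 81.7 to 89.4 CPM without and 48.7 to 56.1 CPM with the drug, and Psme2 and Psmb8 lie lower without overlap.

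By level per length, RT1-A1 (231.5 to 297.2 TPM over the 6 libraries) stood above B2m (157 to 204.1 TPM) without overlap. RT1-CE16, RT1-A2, Tapbp and Psme1 followed, each overlapping the one above it in the order of means. RT1-S3 (18.3 to 42.3 TPM) was below Psme1 (54.5 to 65.7 TPM) without overlap, and from there down each gene overlapped the one above it to Nlrc5 at a mean of 0.64 TPM. The order by the mean of 6 libraries did not hold in each group. RT1-A2 was below RT1-CE16 in all 3 non-loaded libraries (93.2, 93.5 and 101.5 against 112.9, 107.8 and 132.7 TPM) and above it in all 3 spironolactone libraries (175.8, 172.3 and 145.3 against 169.2, 156.6 and 140 TPM). RT1-A2 and Tapbp were mixed without the drug (means of 96.1 and 98 TPM) and apart with it (164.5 and 62.3 TPM).

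None of the genes on lists of the same pathways passed. For comparison with the counts below, 2098 of all 13242 tested genes had an unadjusted p below 0.05 with edgeR. None of 16 standard proteasome and activator genes was called (3 at an unadjusted p below 0.05, edgeR only), with Psmb4 (−0.25 ± 0.09, adjusted p = 0.166) and Psma2 (−0.20 ± 0.07, adjusted p = 0.183) the nearest. Among 8 tested helpers of class I folding and peptide trimming, 0 were called (2 at an unadjusted p below 0.05). Calr, the chaperone calreticulin of the loading complex, measured 416.1 ± 14.3 and 378.1 ± 15.2 CPM (adjusted p = 0.242), and Tpp2, a cytosolic peptidase, 40.5 ± 1.04 and 45.8 ± 2.29 CPM (adjusted p = 0.285).

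For class II processing, 0 of 9 tested genes were called (3 at an unadjusted p below 0.05). Ctsd, a lysosomal protease, measured 321.5 ± 4.82 and 294.4 ± 11.8 CPM (adjusted p = 0.278). Ctss, the protease that cuts the invariant chain, measured 18.5 ± 2.83 and 22.2 ± 0.51 CPM (0.26 ± 0.12, adjusted p = 0.285), and Cst3, a protease inhibitor, 501.7 ± 28.1 and 443.3 ± 30.8 CPM (adjusted p = 0.166). Of 21 tested genes that control MHC transcription or carry the interferon gamma signal, 0 were called (3 at an unadjusted p below 0.05). Rela, a subunit of NF-kB, measured 35.1 ± 0.53 and 30 ± 2.24 CPM (adjusted p = 0.218) and Jak2, a kinase of the interferon gamma receptor, 65.6 ± 5.82 and 74.5 ± 5.36 CPM (adjusted p = 0.259). Among the class I-like genes outside RT1, 0 of 4 tested were called (0 at an unadjusted p below 0.05). Fcgrt, the neonatal Fc receptor that also pairs with B2m, measured 11.1 ± 1.96 and 9.28 ± 1.72 CPM (adjusted p = 0.5), and the iron regulator Hfe 1.39 ± 0.43 and 0.92 ± 0.24 CPM (adjusted p = 0.528). Of the costimulatory genes, Cd274 (adjusted p = 0.682) and Icam1 (adjusted p = 0.916) alone reached the test and did not pass, while Cd80 had at most 2 and Cd86 at most 9 counts.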

How the data were processed

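RNA was sequenced from 3 non-loaded and 3 spironolactone neuroretina samples, grouped by the labels' treatment field. The deposited gene tables hold expected counts, which are unnormalised and divide reads that match several genes, and TPM, per the file headers. FastQC, Trimmomatic, STAR 2.5.3a, RSEM 1.2.28 and rn6 are named in the submitters' processing notes without roles. The annotation version and whether counting used strand were not given in the sources used here, so overlapping and antisense genes may share counts. Members and gene lists were chosen with earlier results of these data known.

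Expected counts were rounded, filtered with edgeR's filterByExpr (13242 of 28358 genes) and tested two-sidedly with edgeR 4.0.16 in R 4.3.3 (TMM scaling, quasi-likelihood F). Benjamini-Hochberg adjustment covered the 13242 genes, and calls needed an adjusted p below 0.05. SE is the log2 fold change over the root of F. TPM served for levels between genes. Named were all called members, the tested non-RT1 members, the tested class II genes, the 6 class I genes highest in TPM, 6 other members by smallest p, and for each other list called genes and up to 2 of smallest p or, for markers, 3 of highest CPM. The RT1 rows that were not tested, the markers Cd68, Clec9a, Ccr2, Cd79a, Ms4a1, Cd3d and Cd8b and the pathway genes Ctss, Cd80, Cd86, Psmb5, Psmb6, Lnpep and Rfxap fall outside this rule and were named after their values were seen. On simulated counts (3 draws, the first with 13142 genes) the test recovered 43.3% of genes changed 1.25-fold, 88.7% at 1.5-fold and 99.3% at 2-fold, with 8.64% of calls false. The changed genes were drawn only from those with a log2 mean CPM above 3. The recovery thus does not cover genes of lower level, among them the tested class II genes, RT1-T24-3, Psmb8, Psmb9 and Nlrc5. Alternatives were RLE, upper quartile and total scaling, DESeq2 1.42.0, limma 3.58.1 (voom, and trend on log2(TPM + 1) and log2(TPM + 0.1)), robust shrinkage, 2 other filters, unrounded counts, the title number as covariate, summed rows and each library left out.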

Additional observations from a re-analysis of the deposited data

How the results depend on the processing

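Of the 7 called genes (4 higher, 3 lower), the number remained within 1.5 times under 9 of the other 12 settings. DESeq2 called 4 (1 lower), with no adjusted p for 21 of the 31 genes, RT1-Ba and Cd74 among them. Limma on log2(TPM + 0.1) called 3 (2 higher, 1 lower). The title number as covariate called 0 (0 higher, 0 lower). With no filter 10 genes were called, among them RT1-CE1, RT1-CE10 and RT1-S3. Leaving out 1 library gave 3 to 8 called genes, 2 to 5 of them higher and 1 to 3 lower, with 4 without NL1, 3 without NL2, 3 without SP2 and 4 without SP3. Over all genes the 348 calls became 111 to 621 with a library left out, 602 with no filter, and 100 or 95 on log2 TPM (pseudocount 1 or 0.1). The causes were not tested. The log2 ratio of the class I sum, 0.33, was 0.19 without RT1-A2 and 0.25 without both RT1-A1 and RT1-A2. It lay between 0.28 and 0.40 with a library left out. The log2 ratio of the class II sum, 1.27, was 0.87 without RT1-Ba and lay between 1.11 and 1.43 with a library left out. Signs turned with the title number as covariate for Cd74 (−0.30), B2m (−0.61), Psmb10 (0.0265), Psme1 (0.0180), Ciita (−0.28), RT1-Da (−0.0419) and RT1-CE5 (−0.00581). On log2 TPM, Tap1 gave −0.0117 (pseudocount 1) and −0.0118 (0.1). Leaving out a library gave −0.40 to 0.0612 for Tapbpl, −0.32 to 0.29 for Psmb9 and −0.31 to 0.0388 for Nlrc5, positive without NL3 and, for Psmb9 (0.0211), also without SP3. Of the genes whose sign turned, Cd74 alone had passed the test. No paired analysis was possible because the labels give no replicate numbers shared by the groups.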
